A study of Mus musculus with 4 samples.

Results

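Integrins and leukocyte adhesion molecules are the surface receptors and ligands by which blood cells, endothelium and tissue cells hold on to each other and to the matrix. The set described here holds 34 genes of the 31053 in the deposited matrices: 16 integrin alpha subunits, 8 integrin beta subunits, and 10 adhesion molecules of other families (Icam1, Icam2, Vcam1, Madcam1, Selp, Sele, Selplg, Pecam1, Cd34 and Esam). The genes were taken by symbol, but the list was drawn up with earlier results of these data known. They were followed through 4 single-cell RNA libraries of dissociated mouse liver, 1 library for each of 4 groups: KO eHCC and WT eHCC, from early hepatocellular carcinoma tissue, and KO premalignant and WT premalignant, from premalignant liver. The titles of all 4 name MEF2D, a transcription factor, and the genotype label gives KO or WT. The labels do not say what the allele is, in which cells it acts, or the strain, age and number of the mice behind each library.

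Integrins are heterodimers of an alpha and a beta subunit, and the pair decides the ligand. The beta2 pairs on leukocytes bind ICAMs, the alpha4 pairs bind VCAM-1 or MAdCAM-1, several beta1 pairs bind collagen, laminin or fibronectin, and the alphav pairs bind matrix proteins and latent TGF-beta. Selectins on endothelium and platelets catch rolling leukocytes through PSGL-1, and in the liver, where blood flows slowly through sinusoids, leukocytes lean more on integrin, ICAM and VCAM contacts than on selectins.

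Each library was kept as 1 sample, so no test between groups was possible and none is given. Levels (CPM) are UMIs of a gene scaled to the UMI total of its cell class, and each 95% interval covers counting error only, not the spread between mice. The kept cells numbered 8320 in KO eHCC, 9472 in WT eHCC, 8791 in KO premalignant and 12249 in WT premalignant, with medians of 7280, 8267, 4300 and 4647 UMIs per cell in that order. Pairs of libraries shared 27 to 46 cell barcodes. Hepatocyte-like cells numbered only 18 to 64 per library, and the named cells were mainly immune and endothelial. A cluster with hepatocyte as its top marker list, led by Fabp1, Bhmt and Car3, was left unnamed for its low UMIs. It held 927 cells in KO premalignant, 828 in WT premalignant, 2 in KO eHCC and 0 in WT eHCC. Mef2d itself had more UMIs in the libraries labelled KO, at 96.7 CPM in KO eHCC against 60.8 CPM in WT eHCC, and at 101.8 CPM in KO premalignant against 71.8 CPM in WT premalignant. Whether these reads lie outside the altered part of the gene is not given, so every genotype comparison below is between libraries labelled KO and WT.

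Of the 34 genes, 32 had at least 50 UMIs in the kept cells of all libraries together. Madcam1, the mucosal addressin that alpha4beta7 binds, had 10 UMIs, and Itgb6, the epithelial partner of alphav, had 41. The cells were grouped into classes by markers that hold no member, and the members were also left out of the clustering. No cluster or name therefore rests on a member, but the levels still depend on how the cells were grouped.

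The beta2 integrins marked the myeloid and cytotoxic compartments. Itgam, the alpha subunit of Mac-1, was highest in neutrophil-like cells, with 501.7 CPM in KO eHCC, 409.8 CPM in WT eHCC, 371.6 CPM in KO premalignant and 362.6 CPM in WT premalignant. Monocyte/macrophage-like cells came next for Itgam, at a median of 218.0 CPM (range over the 4 libraries 172 to 256), and the ranges of these classes did not overlap. Itgb2, the shared beta subunit, had a median of 449 CPM in neutrophil-like cells (421 to 481) and 387 CPM in NK/ILC1-like cells (198 to 498), so their ranges overlapped. Itgal, the alpha subunit of LFA-1, had a median of 373 CPM in Kupffer-like cells (216 to 517) and 305 CPM in NK/ILC1-like cells (187 to 548), which also overlapped. Kupffer-like values, here and below, rest on 22 cells in KO eHCC, 22 in WT eHCC, 36 in KO premalignant and 333 in WT premalignant. A cluster left unnamed because B cell markers competed with its monocyte markers, and led by Ear2, Ace, Adgre4 and Treml4, held more Itgal than any named class: 999 CPM in KO eHCC, 1075 CPM in WT eHCC, 1471 CPM in KO premalignant and 1273 CPM in WT premalignant, from 61, 30, 36 and 64 cells. Itgax, the alpha subunit of the dendritic cell integrin CD11c, was level between conventional dendritic (cDC)-like cells (median 142 CPM, 80.1 to 160) and NK/ILC1-like cells (136 CPM, 92.3 to 200.1). Itgad was low everywhere, with its highest median, 13.0 CPM (6.44 to 37.4), in NK/ILC1-like cells. Itgad overlaps Cox6a2 on the other strand, and Cox6a2 had 1674, 864, 2182 and 1679 UMIs in KO eHCC, WT eHCC, KO premalignant and WT premalignant against 107, 77, 117 and 61 for Itgad. Whether the counting used strand is not given, so these Itgad values are uncertain.

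The alpha4 and beta7 group lay on lymphocytes, dendritic cells and mast/basophil-like cells. Itga4 had medians of 251 CPM in NK/ILC1-like cells (187 to 457) and 241 CPM in plasmacytoid dendritic (pDC)-like cells (208 to 283). Itgb7, which pairs with alpha4 or alphaE, was at 310 CPM in mast/basophil-like cells (190 to 429, 2 libraries, both labelled KO) and 290.0 CPM in cDC-like cells (222 to 304). The mast/basophil-like cells of KO premalignant were mostly of a cluster led by Ifitm1 and Mcpt8 (46 of 47). Those of KO eHCC were mostly of a cluster led by Mcpt4 and Cma1 (230 of 297). Ranges in this class, here and below, thus set different clusters side by side. Itgae, the alphaE subunit that binds E-cadherin and marks tissue-resident lymphocytes and a subset of dendritic cells, had its highest median in cDC-like cells, 52.2 CPM. There it was at 11.3 CPM in KO eHCC, 61.0 CPM in WT eHCC, 53.0 CPM in KO premalignant and 51.4 CPM in WT premalignant, so the KO eHCC library was low and the other 3 were alike. The KO eHCC value rests on 12 UMIs from 77 cells. Itgae overlaps Haspin on the other strand, which had 313, 555, 332 and 641 UMIs in the same order of libraries against 465, 1680, 325 and 247 for Itgae.

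The integrins of the vessel wall had their highest medians in either sinusoidal or vascular endothelium-like cells. Itga1, a collagen and laminin receptor subunit, was highest in cells like liver sinusoidal endothelium (LSEC), with a median of 623 CPM over 3 libraries (612 to 715). Itga9, whose pair with beta1 binds tenascin and VCAM-1, followed the same class at 342 CPM (182 to 357), and Itga8, which binds nephronectin, at 86.9 CPM (69.3 to 102). Vascular endothelium-like cells, found in number in the eHCC libraries (50 cells in KO eHCC and 122 in WT eHCC), were the top class for Itgb1 (866 CPM, 839 to 893), the laminin receptor subunit Itga6 (184 CPM, 124 to 244), the fibronectin receptor subunit Itga5 (75.3 CPM, 70.9 to 79.7) and Itga3 (35.0 CPM, 17.9 to 52.0). For Itga5 the LSEC-like range of 54.5 to 65.6 CPM lay just below. Itga2, the alpha2 collagen receptor subunit used in the mouse as the NK cell antigen DX5, was at 134 CPM in mast/basophil-like cells (53.6 to 215) and 57.3 CPM in NK/ILC1-like cells (36.0 to 87.5).

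Itgav and its partners Itgb3, Itgb5 and Itgb8 had their highest class medians in Kupffer-like or stellate/fibroblast-like cells. Itgav was level between Kupffer-like cells (88.4 CPM, 65.5 to 108) and stellate/fibroblast-like cells (85.8 CPM, 81.7 to 92.0). Itgb5, whose alphavbeta5 pair takes up apoptotic cells and binds vitronectin, was at 234 CPM in Kupffer-like cells (192 to 344). Monocyte/macrophage-like cells of WT eHCC held more of it, as given below. Over all kept cells Itgb5 was at 259 CPM in WT eHCC, 16.0 CPM in KO eHCC, 8.62 CPM in KO premalignant and 23.0 CPM in WT premalignant. Itgb3 (48.8 CPM), Itgb8 (12.8 CPM) and the hemidesmosome subunit Itgb4 (13.2 CPM) had their highest medians in stellate/fibroblast-like cells, which came to only 115 cells in 3 libraries, and Itga7, at 1.16 CPM there, rested on 4 UMIs. Itga2b, the platelet alphaIIb subunit, was at 220 CPM in mast/basophil-like cells (122 to 317). A cluster of 33 cells of KO eHCC with platelet markers had 4817 CPM of Itga2b and 2084 CPM of Itgb3, its partner in the fibrinogen receptor, beside 1245 CPM of Itga6 and 135 CPM of Selp.

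Among the adhesion molecules outside the integrins, the vascular ones kept apart from Vcam1, Icam1 and Selplg. Vascular endothelium-like cells led for Pecam1, the junctional CD31 antigen, at 1137 and 1252 CPM in its 2 libraries, for the junction protein Esam (964 and 973 CPM), for Cd34, the sialomucin of capillaries (892 and 919 CPM), and for the LFA-1 ligand Icam2 (409 and 485 CPM). LSEC-like cells had lower levels of Esam (729 CPM, 673 to 738) and Pecam1 (681 CPM, 669 to 695), and little Cd34. In LSEC-like cells Cd34 was at 18.2 CPM in KO premalignant and 38.04 CPM in WT premalignant. Selp had a median of 20.1 CPM in LSEC-like cells (11.6 to 57.2), and Sele did not pass 7.09 CPM in either vascular endothelium-like sum. Among the classes, Vcam1, the alpha4beta1 ligand, was highest in Kupffer-like cells, with 572 CPM in KO eHCC, 517.5 CPM in WT eHCC, 241 CPM in KO premalignant and 338 CPM in WT premalignant. These came from 22, 22, 36 and 333 cells. A cluster of the monocyte/macrophage-like class held more Vcam1 in both eHCC libraries, as given below. Icam1 was spread over NK/ILC1-like (150.1 CPM, 98.5 to 180.4) and Kupffer-like cells (102 CPM, 26.2 to 120.0). Selplg, which encodes PSGL-1, was level between pDC-like cells (646 CPM, 581 to 729) and neutrophil-like cells (629 CPM, 276 to 806). With every cell thinned to 1000 UMIs the top class was kept for 22 of 32 members, and with predicted doublets kept for 24 of 32.

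**Figure D1:**
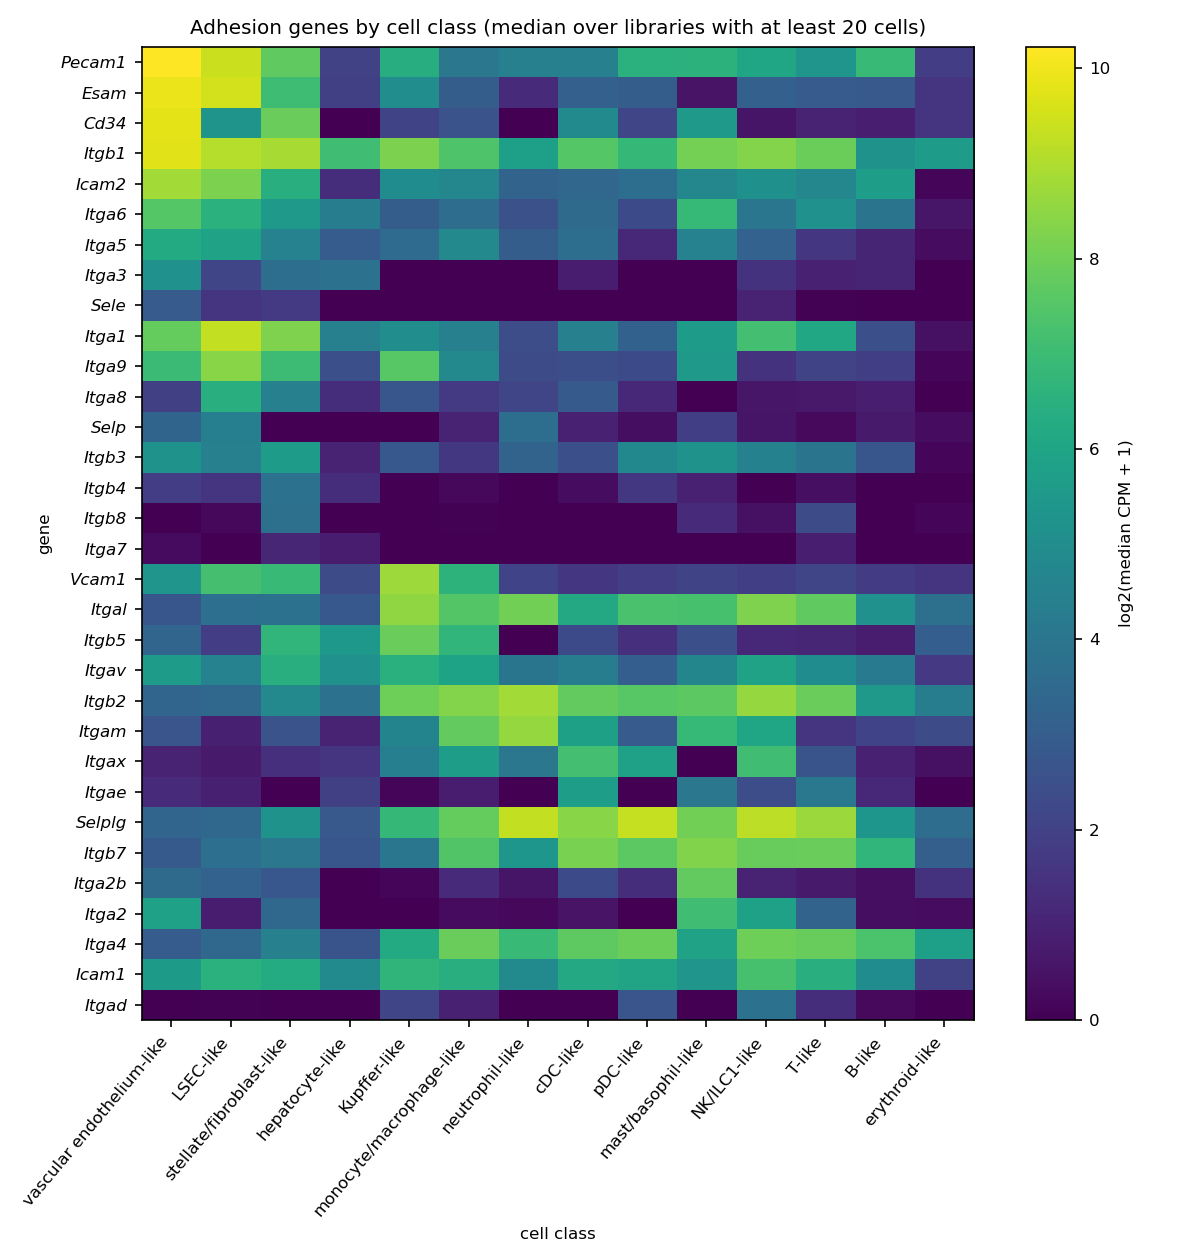
Heat map of the 32 members with at least 50 UMIs (rows) across named cell classes (columns), coloured by log2(median CPM + 1), the median taken over the libraries with at least 20 such cells. Itgam and Itgb2 peak in neutrophil-like cells, Itga1, Itga8 and Itga9 in LSEC-like cells, and Cd34, Esam, Icam2 and Pecam1 in vascular endothelium-like cells.

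Promoter windows of 4 members are shown because the genes form neighbouring pairs that the map above sets apart: Itga1 and Itga2 on chromosome 13, and Itgam and Itgax on chromosome 7. Each is the 300 bases from 250 before the start site to 50 after it, from RefSeq on GRCm38.p6, on the gene's own strand: Itga1 at chr13:115101915-115102214, minus, Itga2 at chr13:114932051-114932350, minus, Itgam at chr7:128062390-128062689, plus, and Itgax at chr7:128129300-128129599, plus. Capitals mark AGGAAG, the ETS type core (as bound by PU.1), and TGTGGT, the RUNX type core, on either strand.
Itga1: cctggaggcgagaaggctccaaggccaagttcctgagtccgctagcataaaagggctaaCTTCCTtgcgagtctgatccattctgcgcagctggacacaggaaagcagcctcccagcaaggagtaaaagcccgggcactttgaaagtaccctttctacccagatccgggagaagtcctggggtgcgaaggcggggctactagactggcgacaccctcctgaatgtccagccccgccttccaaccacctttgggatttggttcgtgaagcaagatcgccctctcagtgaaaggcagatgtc
Itga2: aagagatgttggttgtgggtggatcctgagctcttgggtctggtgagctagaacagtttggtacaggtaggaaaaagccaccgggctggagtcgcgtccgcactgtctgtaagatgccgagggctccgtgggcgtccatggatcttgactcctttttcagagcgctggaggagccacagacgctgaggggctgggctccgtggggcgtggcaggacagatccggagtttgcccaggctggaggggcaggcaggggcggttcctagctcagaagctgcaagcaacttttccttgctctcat
Itgam: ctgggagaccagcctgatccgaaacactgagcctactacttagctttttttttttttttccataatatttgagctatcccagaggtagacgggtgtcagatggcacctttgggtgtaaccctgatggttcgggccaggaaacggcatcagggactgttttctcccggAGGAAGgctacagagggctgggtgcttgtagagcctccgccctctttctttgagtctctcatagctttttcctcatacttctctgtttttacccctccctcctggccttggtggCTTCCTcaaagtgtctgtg
Itgax: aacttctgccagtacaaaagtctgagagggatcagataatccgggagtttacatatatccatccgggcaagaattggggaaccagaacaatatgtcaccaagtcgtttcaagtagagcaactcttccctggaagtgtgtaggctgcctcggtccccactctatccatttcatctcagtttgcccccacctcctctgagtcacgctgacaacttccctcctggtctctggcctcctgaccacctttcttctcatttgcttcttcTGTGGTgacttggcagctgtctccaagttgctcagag

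The Itgam window held AGGAAG at 2 places, first bases at -83 and 31 with the start site as 0, the Itga1 window held it at -191, the Itgax window held TGTGGT at 13, and the Itga2 window held neither. Windows were found for 21 of the 34 members, 23 windows in all. AGGAAG was in 13 of the 23, against 35.35% of the 32817 windows of all genes, and TGTGGT in 3 of the 23, against 16.76%. CTANNNNTAG, the core of the MEF2 type site, was in 0 of the 23 windows, against 3.69% of all windows.

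In eHCC, the libraries labelled KO and WT differed most in the integrins of NK/ILC1-like cells, T-like cells and macrophage-like cells. Over the 4 classes with at least 100 cells in both libraries, 75 pairs of a member and a class reached 50 UMIs, and 35 of them lay past 1.5-fold, 18 higher and 17 lower in KO eHCC. That is 46.7% of the pairs, against 27.0% of all genes and classes under the same limits, of which 9.74% were higher and 17.3% lower. The median log2 ratio was 0.11 over the member pairs and -0.08 over all.

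**Figure D2:**
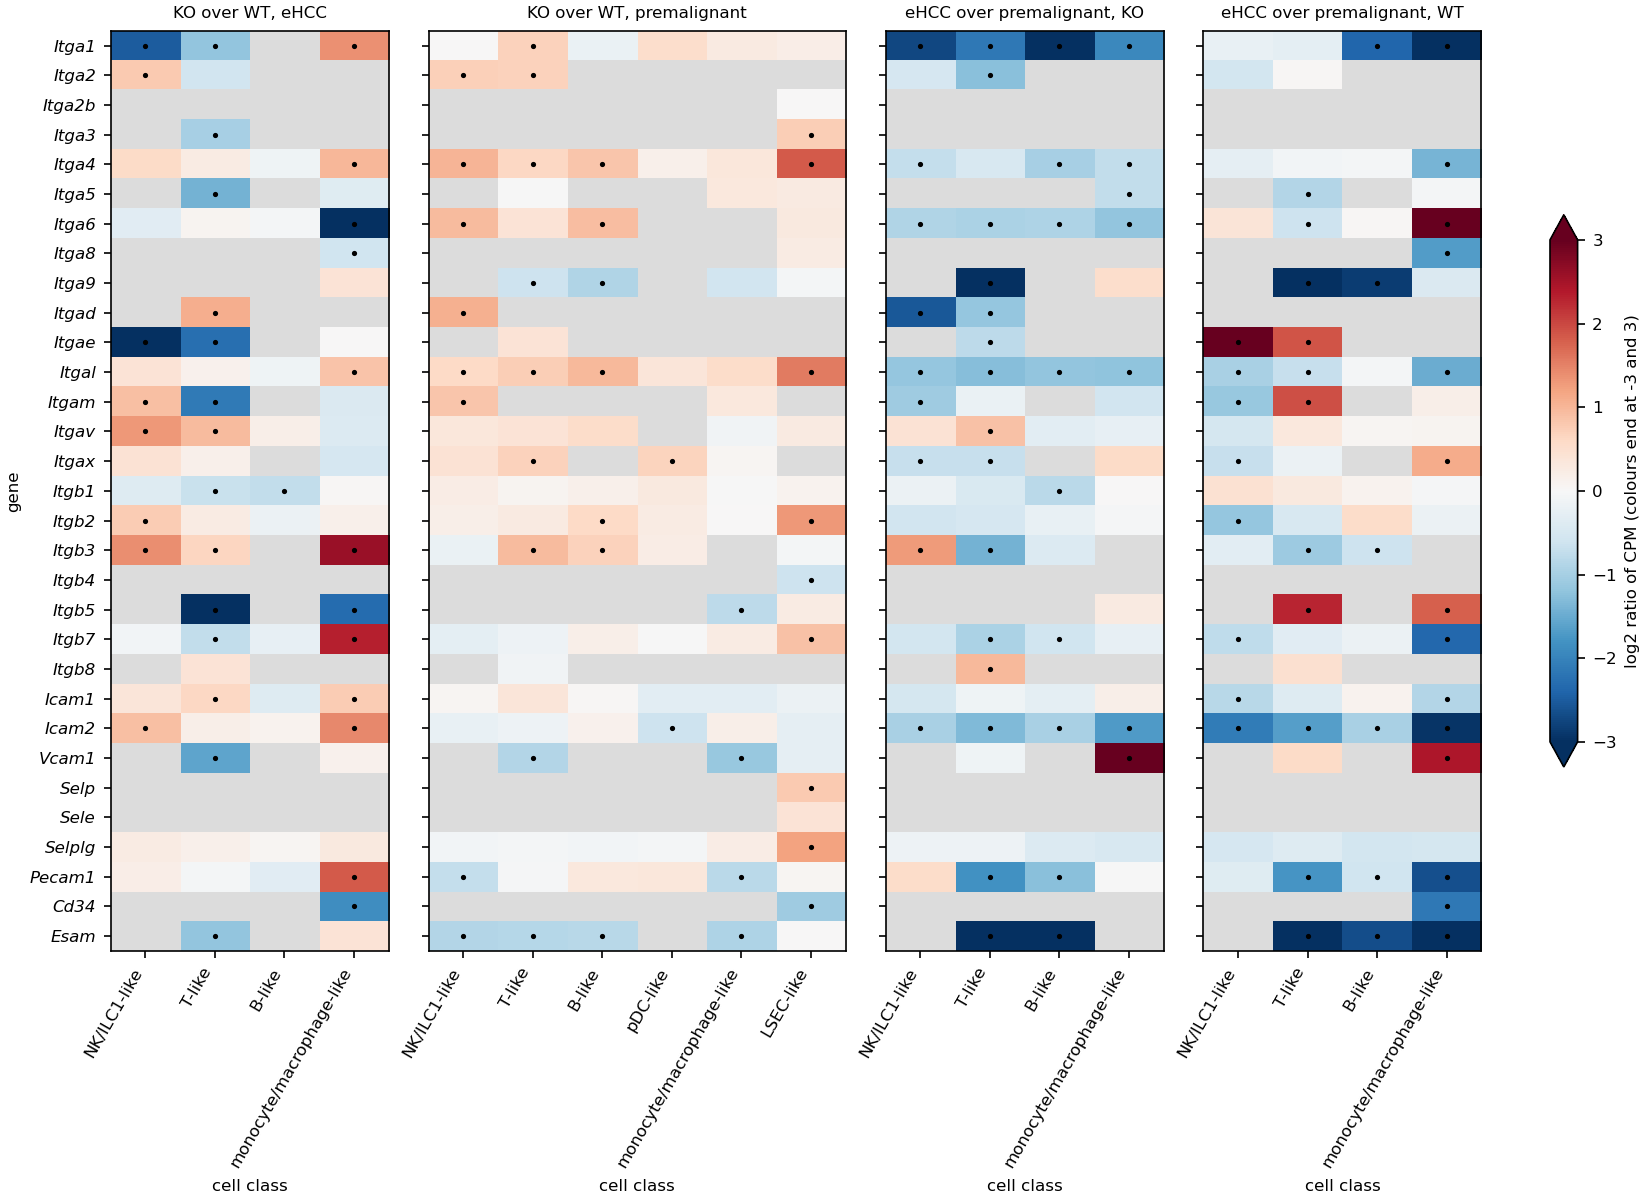
Log2 ratio of CPM of each member (rows) in each cell class (columns) for the 4 comparisons, KO over WT and eHCC over premalignant, with grey where both libraries together hold under 50 UMIs and a dot where the ratio is past 1.5-fold. Itgae is lower in KO eHCC in T-like and NK/ILC1-like cells, and Itga4 and Itgal are higher in KO premalignant in NK/ILC1-like, T-like and B-like cells.

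In NK/ILC1-like cells, Itga1 was low in KO eHCC and Itgae high in WT eHCC, each against the other 3 libraries. Itgae was at 0.773 CPM (3 UMIs in 428 cells) in KO eHCC against 39.8 CPM (84 UMIs in 330 cells) in WT eHCC, a log2 ratio of -5.69 (95% interval -7.99 to -4.09). In the premalignant libraries it was at 3.74 CPM in KO and 4.89 CPM in WT, so WT eHCC alone was high. Itga1, the CD49a of liver-resident ILC1, was at 23.2 CPM in KO eHCC and 129.8 CPM in WT eHCC (log2 ratio -2.48, -2.84 to -2.14). Its premalignant levels, 154.8 CPM in KO and 152 CPM in WT, lay beside WT eHCC, so here KO eHCC alone was low. These were the 2 of 17 measured members past 1.5-fold downwards (11.8%, against 15.7% of all genes in this class, so no more than the background), and 6 of 17 were past it upwards, against 8.46%. Itga2 was at 61.6 CPM in KO eHCC and 36.0 CPM in WT eHCC (log2 ratio 0.77), Itgam at 59.0 and 31.7 CPM (0.89), and Itgb2 at 333 and 198 CPM (0.75). In the premalignant libraries Itga2 was at 87.5 CPM in KO and 53.0 CPM in WT, Itgam at 124 and 69.3 CPM, and Itgb2 at 498 and 441 CPM, so for these 3 genes WT eHCC was the lowest library and KO eHCC was not the highest. When the libraries were clustered separately the class held 662 cells in KO eHCC and 340 in WT eHCC, the ratios of Itga2 and Itgam turned to -0.21 and -0.35, those of Itgb2 (0.52) and Itgb3 (0.34) came within 1.5-fold, and those of Itga1 and Itgae were -3.36 and -4.23. Itgav was at 87.6 CPM in KO eHCC and 35.5 CPM in WT eHCC (1.30), its partner Itgb3 at 48.2 and 18.5 CPM (1.38), and Icam2 at 23.2 and 12.3 CPM (0.91). Itga4 (log2 0.57, and 0.59 to 0.70 under 4 alternatives), Itgax (0.42) and Itgal (0.40) were within 1.5-fold. The 10 NK/ILC1 markers of the class itself summed to 10122 CPM in KO eHCC and 5653 CPM in WT eHCC, the 7 erythroid markers to 5650 and 179 CPM, the 12 monocyte/macrophage markers to 630 and 1023 CPM and the 10 hepatocyte markers to 52.8 and 180.0 CPM. Their part in these ratios was not tested.

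Per cell, few NK/ILC1-like cells held UMIs of both Itga1 and Itga2, and the largest group in each library held neither. Of the NK/ILC1-like cells, 44 of 428 (10.3%) had an Itga1 and no Itga2 UMI in KO eHCC, 118 of 330 (35.8%) in WT eHCC, 105 of 390 (26.9%) in KO premalignant and 81 of 234 (34.6%) in WT premalignant. An Itga2 and no Itga1 UMI was seen in 138 cells (32.2%) of KO eHCC, 34 (10.3%) of WT eHCC, 93 (23.8%) of KO premalignant and 36 (15.4%) of WT premalignant. Cells with both numbered 11 in KO eHCC, 27 in WT eHCC, 23 in KO premalignant and 12 in WT premalignant. The number that sparse UMIs alone would give was not calculated, so the low numbers do not show that the 2 genes exclude each other. In WT eHCC the 27 cells with both were not far below the 34 with Itga2 and no Itga1. Neither gene had a UMI in 235 cells (54.9%) of KO eHCC, 151 (45.8%) of WT eHCC, 169 (43.3%) of KO premalignant and 105 (44.9%) of WT premalignant, so the 2 genes divide only the rest of the class. Not scaled for depth, KO eHCC had the lowest share of Itga1 cells and the highest share of Itga2 cells. By CPM, given above, Itga2 was higher in KO premalignant than in KO eHCC. Cells with Itga2 and no Itga1 had medians of 4092 UMIs in KO premalignant and 8263 UMIs in KO eHCC. Median depth in the class was 8548 UMIs in KO eHCC and 6006 UMIs in WT eHCC, and B-like cells, which should lack Itga1, held it in 0.391% and 0.813% of cells at medians of 4881 and 4580 UMIs. Thinned to 1000 UMIs per cell, Itga1 was seen in 2.34% of NK/ILC1-like cells of KO eHCC and 12.8% of WT eHCC, and Itga2 in 5.84% and 4.27%.

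The split went with other genes of the lineage. A sum of 5 genes of conventional NK cells (Eomes, S1pr5, Klra8, Klra4 and Cma1, of which 3 also served to name the class) was at 1022 CPM in KO eHCC, 742 CPM in WT eHCC, 1303 CPM in KO premalignant and 1040 CPM in WT premalignant. A sum of 5 ILC1 genes (Il7r, Cxcr6, Cd200r1, Tnfsf10 and Tmem176a) was at 291 CPM in KO eHCC, 741 CPM in WT eHCC, 632 CPM in KO premalignant and 818 CPM in WT premalignant. The ILC1 sum was thus lowest in KO eHCC. In cells with Itga1 and no Itga2 the ILC1 genes reached 599, 831, 1080 and 1227 CPM in KO eHCC, WT eHCC, KO premalignant and WT premalignant, and in cells with Itga2 and no Itga1 they reached 119, 323, 197 and 319 CPM. The NK genes ran the other way, with 243, 553, 89.98 and 157 CPM in the Itga1 cells and 1585, 1260.0, 2440 and 1897 CPM in the Itga2 cells. Itgam lay with Itga2, at 116, 68.2, 228 and 106 CPM in the Itga2 cells and 30.8, 20.02, 18.0 and 10.5 CPM in the Itga1 cells. Of the 84 Itgae UMIs of WT eHCC, 51 were in cells with Itga1 and no Itga2.

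**Figure D3:**
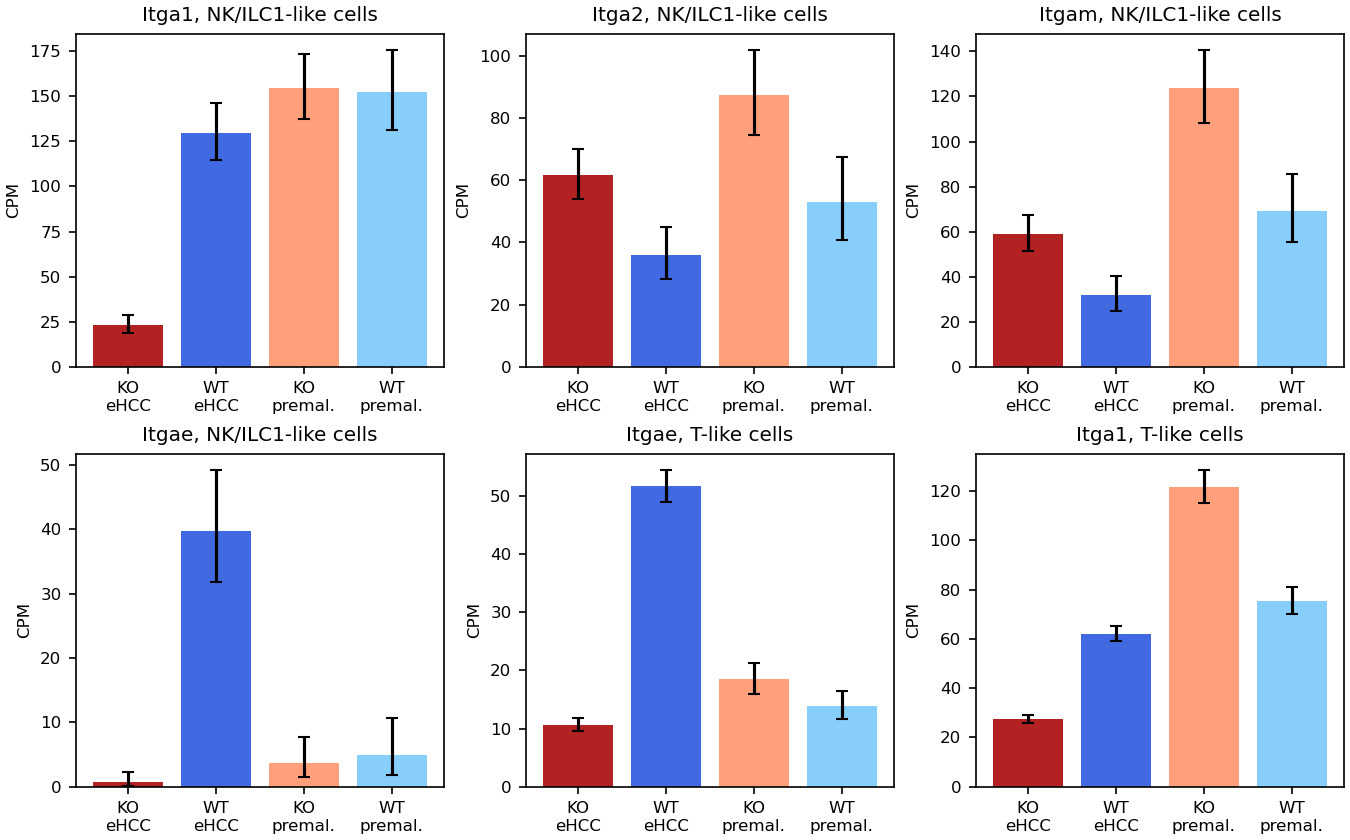
CPM of Itga1, Itga2, Itgam and Itgae in NK/ILC1-like cells and of Itgae and Itga1 in T-like cells, a bar for each of the 4 libraries, with 95% Poisson intervals for counting error. Itga1 is lowest in KO eHCC in both classes, and Itgae stands high in WT eHCC in both, at 39.8 and 51.7 CPM.

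T-like cells showed the same Itgae contrast in eHCC at greater depth. Itgae was at 10.7 CPM in KO eHCC and 51.7 CPM in WT eHCC, a log2 ratio of -2.27 (-2.44 to -2.11), with 18.5 CPM in KO premalignant and 13.9 CPM in WT premalignant. WT eHCC stood above the other 3 libraries. Itgb7, its only known partner, was at 131 CPM in KO eHCC and 220.3 CPM in WT eHCC (-0.75, and -0.19 with clusters weighted alike in both libraries). T-like cells were also split by their own UMIs: Foxp3 cells, Cd8 cells with no Cd4 UMI, Cd4 cells with no Cd8 UMI, and Trdc cells with neither, called gamma-delta. In Cd4 cells (885 in KO eHCC, 430 in WT eHCC) Itgae was at 3.71 and 45.7 CPM, in Cd8 cells (2944 and 2369) at 9.06 and 37.7 CPM, and in gamma-delta cells (73 and 181) at 12.5 and 133 CPM. In Foxp3 cells (78 and 135), the regulatory T cells, the values were close, at 184 CPM in KO eHCC and 204 CPM in WT eHCC. Different clusters held most T-like cells of the eHCC libraries: one led by Ccl5, Gzma and Gzmb held 55.8% in KO eHCC and 2.79% in WT eHCC, and one led by Cd8b1 and Nkg7 held 0.959% in KO eHCC and 55.1% in WT eHCC. The Itgae ratio was -0.90 with clusters weighted alike. In the cluster led by Tnfrsf4 and Icos, well filled in both (411 and 674 cells), Itgae was at 56.8 CPM in KO eHCC and 95.1 CPM in WT eHCC.

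The collagen receptor subunit Itga1 was also lower in T-like cells of KO eHCC, and its partner Itgb1 less firmly so. Itga1 was at 27.3 CPM in KO eHCC and 62.0 CPM in WT eHCC (log2 ratio -1.18, -1.30 to -1.07, and -1.11 with clusters weighted alike). Itgb1 was at 185 and 292 CPM (-0.66), but at -0.32 with clusters weighted alike and between -0.58 and -0.49 under 5 other alternatives. The alphav integrin went the other way in the class as a whole. Itgav was at 57.3 CPM in KO eHCC and 29.4 CPM in WT eHCC (0.96, 0.84 to 1.08), and the ratio was 0.28 with clusters weighted alike. It was at 40.5 and 21.6 CPM in Cd8 cells and 395 and 137 CPM in Foxp3 cells, where Itgb8, its partner in freeing TGF-beta, was at 118 and 48.1 CPM. Itgb3 (0.64), Icam1 (0.63, 94.3 CPM in KO eHCC and 61.0 CPM in WT eHCC) and the low Itgad (1.08) were the other members past 1.5-fold upwards. Icam1 came to 0.48 with clusters weighted alike and 0.55 with doublets kept, and Itgb3 to 0.48 with doublets kept, 0.25 after thinning and 0.57 with cells weighted equally. In all, 4 of 24 measured members were higher and 10 lower in KO eHCC, against 8.54% and 18.1% of all genes in T-like cells.

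The remaining 6 lower members in T-like cells were low in level and are genes of macrophages or endothelium. Itgb5 was at 0.571 CPM in KO eHCC and 8.55 CPM in WT eHCC (log2 ratio -3.90), Itgam at 1.63 and 7.05 CPM (-2.11), and Vcam1 at 2.15 and 6.43 CPM (-1.58). Itga5 (-1.43), Esam (-1.17) and Itga3 (0.653 CPM in KO eHCC and 1.31 CPM in WT eHCC) did not pass 1.46 CPM in either library. The 12 monocyte/macrophage markers summed to 1068 CPM in T-like cells of KO eHCC and 1352 CPM in those of WT eHCC, and the 10 hepatocyte markers to 14.3 and 176 CPM. Their part in these ratios was not tested. In B-like cells of eHCC, where 98.6% of the KO cells were in another cluster than most WT cells, Itgb1 alone of 11 measured members was past 1.5-fold (22.8 CPM in KO eHCC, 38.4 CPM in WT eHCC, -0.75), against 7.26% of all genes higher and 12.1% lower. The 7 erythroid markers summed to 9708 CPM in B-like cells of KO eHCC and 2158 CPM in those of WT eHCC.

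In monocyte/macrophage-like cells the laminin receptor subunit Itga6 and the vitronectin receptor subunit Itgb5 had the lowest ratios of KO eHCC to WT eHCC among the members. Itga6 was at 6.65 CPM in KO eHCC and 137 CPM in WT eHCC (log2 ratio -4.37, -4.71 to -4.05), against 15.2 CPM in KO premalignant and 8.08 CPM in WT premalignant. Itgb5 was at 87.8 CPM in KO eHCC and 436 CPM in WT eHCC (-2.31, -2.40 to -2.22), against 73.1 CPM in KO premalignant and 125 CPM in WT premalignant. For both genes WT eHCC stood far above the other libraries. In the WT eHCC library 3 clusters, led by C1qa and Trem2 (1595 cells), by Chil3 and Tgfbi (996 cells) and by Spp1 and Chil3 (439 cells), held most of the class and came almost wholly from that library. They had 186, 134 and 90.2 CPM of Itga6 and 546, 416.5 and 325 CPM of Itgb5. In 2 clusters both eHCC libraries had over 100 cells. Cluster 12, led by Lyz2, Chil3 and Cd14, held 74.2% of the class in KO eHCC and 5.27% in WT eHCC. Within it Itga6 was at 2.73 CPM in KO eHCC and 11.6 CPM in WT eHCC (-2.09), and Itgb5 at 53.9 and 113.9 CPM (-1.08). Cluster 20, led by C1qa, Mmp12, Ccl8 and Cd5l, held 23.7% of the class in KO eHCC and 7.96% in WT eHCC. Within it Itga6 was at 15.7 CPM in KO eHCC and 22.2 CPM in WT eHCC (-0.50, -1.10 to 0.07), and Itgb5 at 177 and 266 CPM (-0.58), both within 1.5-fold. The ratios of Itga6 and Itgb5 were -0.97 and -0.75 with clusters weighted alike. With 1 library per group, clusters found in 1 library cannot be told apart from that library. In the class the 7 erythroid markers summed to 3997 CPM in KO eHCC and 238 CPM in WT eHCC, the 10 stellate/fibroblast markers to 31.2 and 211 CPM, the 10 hepatocyte markers to 252 and 488 CPM and the 10 LSEC markers to 432 and 792 CPM, and their part in the ratios of this class was not tested.

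The leukocyte integrins of monocytes ran the other way in the class as a whole. Itgb7 was at 174 CPM in KO eHCC and 34.3 CPM in WT eHCC (log2 ratio 2.34), Itga4 at 202 and 102 CPM (0.99), Itgal at 140 and 77.2 CPM (0.86) and Icam1 at 90.1 and 53.5 CPM (0.75). Within cluster 12, Itgb7 kept a ratio of 0.68 (223 CPM in KO eHCC, 139.5 CPM in WT eHCC) and Pecam1 one of 1.14, but Itga4 (-0.35), Itgal (-0.80), Icam1 (-0.14) and Icam2 (-0.29) turned. Within cluster 20, Itga4 (-0.40), Itgal (-0.53) and Icam1 (-0.17) turned too, and Itgb7 (0.53), Icam2 (0.44) and Pecam1 (0.20) were within 1.5-fold. Those class ratios therefore depend on which clusters each library holds. Pecam1 (1.83), Icam2 (1.43), Itga1 (1.38) and Itgb3 (2.59) were higher in the KO eHCC class at no more than 15.7 CPM, and Cd34 (-1.87) and Itga8 (-0.61) lower at no more than 3.35 CPM. With clusters weighted alike Pecam1 (0.42), Icam2 (0.0016), Itga1 (0.18) and Cd34 (-0.57) were within 1.5-fold, as was Itga8 with own-library clustering (-0.58) and after centring (-0.54). In all 8 of 23 measured members were higher and 4 lower, against 13.1% and 20.3% of all genes. The ratio for Itgam was -0.43 and that for Itgax -0.49, both within 1.5-fold, though Itgam was higher in KO eHCC within cluster 20 (85.3 CPM in KO eHCC, 32.9 CPM in WT eHCC, 1.38). Vcam1 was near equal in the class, at 177 CPM in KO eHCC and 163 CPM in WT eHCC. In cluster 20 it was at 724.5 CPM (213 cells) in KO eHCC and 1145 CPM (278 cells) in WT eHCC, a log2 ratio of -0.66. That cluster gave 89.3% of the 2123 Vcam1 UMIs of the class in KO eHCC and 38.5% of the 9231 in WT eHCC, where the WT eHCC cluster led by C1qa and Trem2 gave 59.7%.

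**Figure D4:**
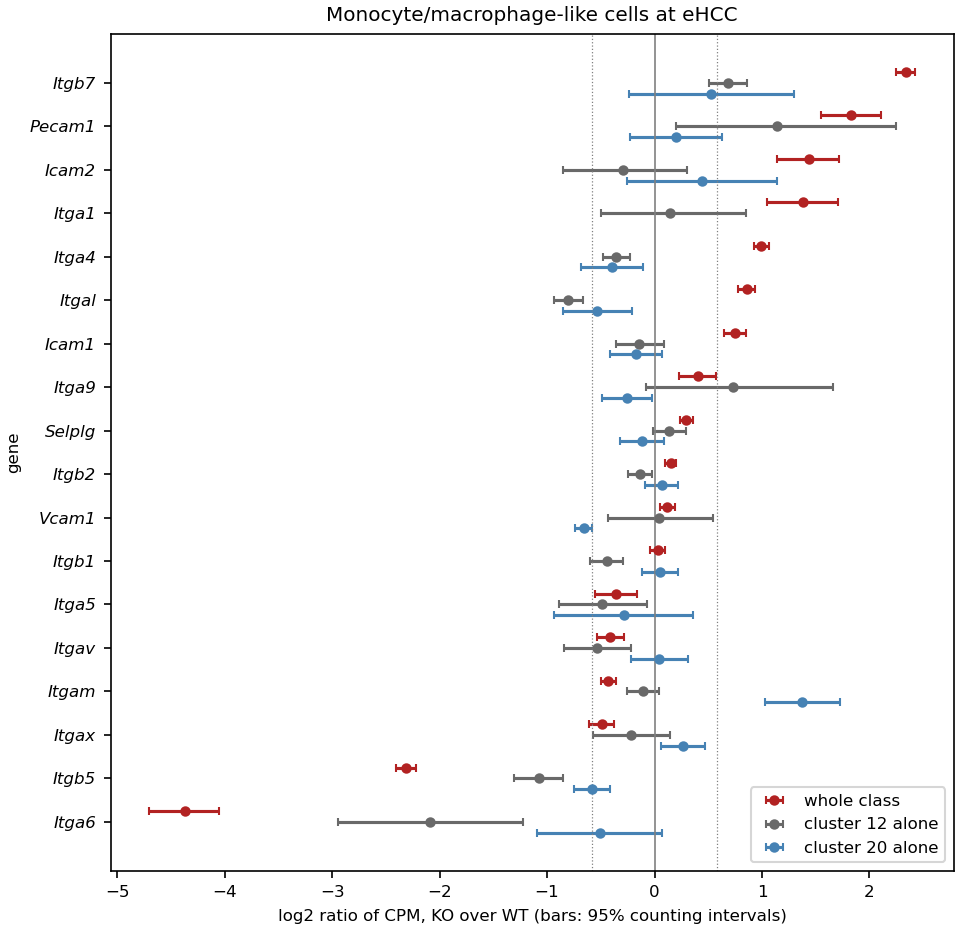
Log2 ratio of CPM, KO eHCC over WT eHCC, of members in monocyte/macrophage-like cells, for the whole class (red), for cluster 12 alone (grey) and for cluster 20 alone (blue, where measured), with 95% intervals for counting error and dotted lines at 1.5-fold. Itga6 and Itgb5 lie past 1.5-fold in the class and in cluster 12 but not in cluster 20, and Itga4, Itgal and Icam1 lie above 0 in the class and below it in both clusters.

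In premalignant liver, the library labelled KO held more of the alpha4 and alphaL lymphocyte integrins. Over 6 classes, 109 pairs reached 50 UMIs and 39 lay past 1.5-fold, 25 higher and 14 lower in KO premalignant. That is 35.8%, against 13.8% of all genes and classes, of which 9.45% were higher and 4.36% lower. The median log2 ratio was 0.20 over the member pairs and 0.07 over all. Itga4 was at 457 CPM in KO premalignant and 225 CPM in WT premalignant in NK/ILC1-like cells (log2 ratio 1.02, 0.82 to 1.22), at 288 and 163 CPM in B-like cells (0.82, 0.73 to 0.92), and at 331 and 214 CPM in T-like cells (0.63, 0.55 to 0.71). Itgal was at 548 CPM in KO premalignant and 364 CPM in WT premalignant in NK/ILC1-like cells (0.59, 0.43 to 0.75), at 70.8 and 36.1 CPM in B-like cells (0.97, 0.77 to 1.17), and at 420.5 and 252 CPM in T-like cells (0.74, 0.67 to 0.81). In all 3 lymphoid classes the intervals of the KO and WT levels did not overlap. In pDC-like cells the ratios were 0.15 for Itga4 and 0.37 for Itgal, and in monocyte/macrophage-like cells 0.33 and 0.56, within 1.5-fold. In eHCC the Itga4 and Itgal ratios in T-like, B-like and NK/ILC1-like cells lay between -0.14 and 0.57, also within 1.5-fold. All genes had a median ratio of 0.11 in B-like, 0.10 in T-like and 0.06 in NK/ILC1-like cells. Centred on these medians, Itga4 was at 0.71 in B-like cells, but Itga4 in T-like cells (0.53) and Itgal in NK/ILC1-like cells (0.53) came within 1.5-fold. Itga4 in T-like cells was also at 0.53 after thinning and 0.46 with cells weighted equally, Itgal in T-like cells at 0.57 with clusters weighted alike, and Itgal in NK/ILC1-like cells at 0.56 at Leiden resolution 2 and 0.58 with own-library clustering.

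**Figure D5:**
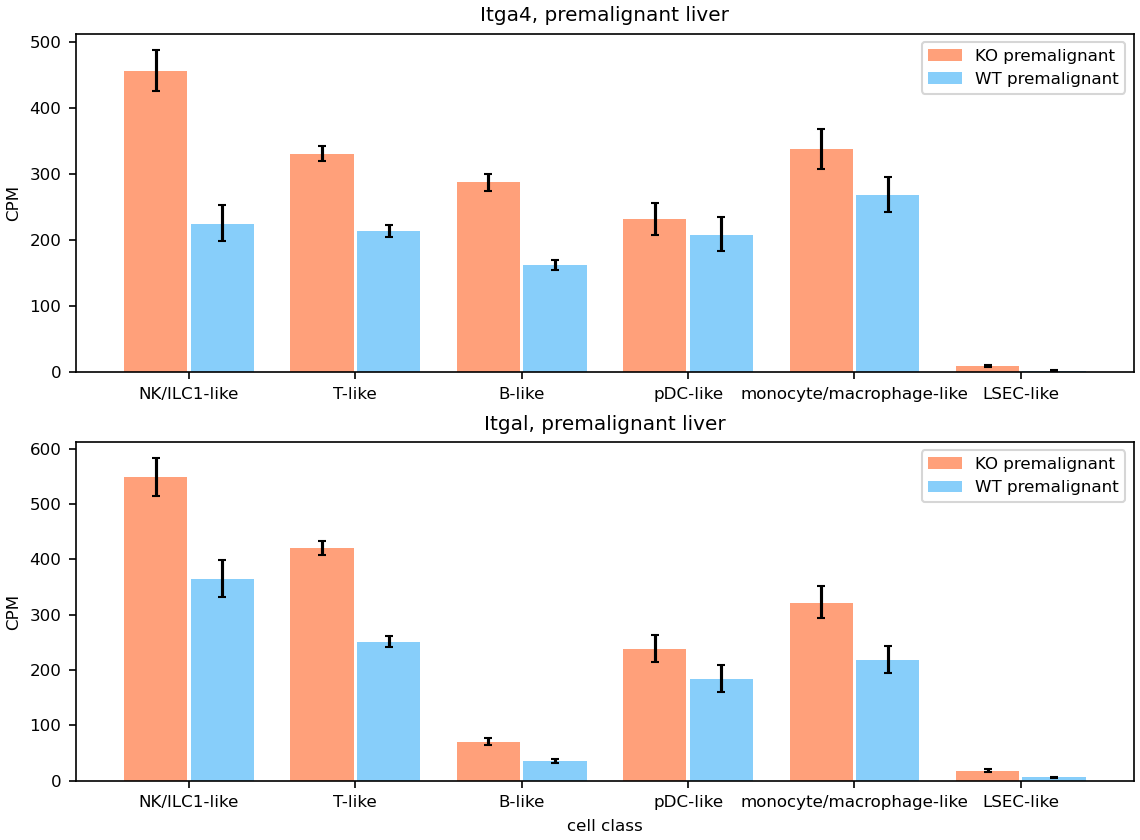
CPM of Itga4 and Itgal in 6 cell classes of the KO premalignant and WT premalignant libraries, with 95% Poisson intervals for counting error. In T-like, B-like and NK/ILC1-like cells the KO premalignant bar lies above the WT premalignant bar for both genes, with 457 against 225 CPM for Itga4 in NK/ILC1-like cells.

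Other lymphocyte integrins were higher in single classes of KO premalignant. In B-like cells these were Itga6 (26.6 CPM in KO, 14.1 CPM in WT, log2 ratio 0.92), Itgb3 (0.69) and Itgb2 (0.60), so that with Itga4 and Itgal 5 of 15 measured members were higher against 13.4% of all genes, and 2 lower against 4.56%. Centring took Itgb3 to 0.58 and Itgb2 to 0.48 there, and Itgb2 was at 0.58 with doublets kept. In T-like cells Itga1 was at 122 CPM in KO premalignant and 75.3 CPM in WT premalignant (0.69), Itgb3 at 32.3 and 16.7 CPM (0.95), Itga2 at 13.7 and 8.44 CPM (0.70) and Itgax at 8.58 and 5.35 CPM (0.68), and with Itga4 and Itgal 6 of 21 were higher against 10.6%, and 3 lower against 4.72%. Itga1 (0.47), Itgax (0.52) and Itga2 (0.57) were within 1.5-fold with clusters weighted alike. In NK/ILC1-like cells Itgad (37.4 and 17.9 CPM, 1.06), Itga6 (0.94), Itgam (124 and 69.3 CPM, 0.84) and Itga2 (87.5 and 53.0 CPM, 0.72) were higher, 6 of 18 against 11.1%, and 2 were lower against 4.97%. Itga1 in those cells was near equal at 154.8 CPM in KO premalignant and 152 CPM in WT premalignant. In pDC-like cells Itgax was higher (80.9 and 51.1 CPM, 0.66) and Icam2 lower (15.3 and 23.4 CPM, -0.62), 1 of 12 each way against 9.28% and 3.88%. Icam2 was at -0.25 there with doublets kept and at -0.58 with cells weighted equally or without its top cell.

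The members lower in KO premalignant immune cells were mostly genes of endothelium and macrophages at low level. Esam was at 9.89 CPM in KO and 17.5 CPM in WT in B-like cells (log2 ratio -0.82), at 11.8 and 21.5 CPM in T-like cells (-0.86), at 15.5 and 28.5 CPM in NK/ILC1-like cells (-0.88) and at 13.1 and 24.9 CPM in monocyte/macrophage-like cells (-0.93). Itga9 was lower in B-like (-0.91) and T-like cells (-0.62), Pecam1 in NK/ILC1-like (-0.71) and monocyte/macrophage-like cells (-0.80), and Vcam1 in T-like (-0.87) and monocyte/macrophage-like cells (-1.14). The 10 LSEC markers moved the same way, with sums of 229 CPM in KO and 469 CPM in WT in T-like cells, 222 and 874 CPM in NK/ILC1-like cells, 282 and 453 CPM in B-like cells, and 442 and 828 CPM in monocyte/macrophage-like cells. Their part in these ratios was not tested. Except for Itga9 in B-like cells, each of these ratios came within 1.5-fold or turned under at least 1 alternative. With doublets kept Pecam1 in monocyte/macrophage-like cells turned to 0.088, and Esam in T-like (-0.55) and monocyte/macrophage-like cells (-0.41), Vcam1 in T-like cells (-0.54) and Itga9 in T-like cells (-0.19) came within 1.5-fold. Vcam1 in monocyte/macrophage-like cells was at -0.095 with clusters weighted alike, and in T-like cells at -0.43 with cells weighted equally. Thinning took Esam to -0.32 in B-like and -0.27 in T-like cells. At Leiden resolution 2, Esam (-0.24) and Pecam1 (-0.51) in NK/ILC1-like cells and Itga9 in T-like cells (-0.19) were within 1.5-fold, as were Esam in NK/ILC1-like cells (-0.35) and Itga9 in T-like cells (-0.49) with cells weighted equally, and Itga9 in T-like cells with members allowed in the clustering (-0.56). Itgb5 was at 73.1 CPM in KO and 125 CPM in WT in monocyte/macrophage-like cells (-0.78, and -0.54 with clusters weighted alike), which made 4 of 18 members lower and 0 higher there, against 6.37% and 7.95% of all genes.

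LSEC-like cells were alike in the members that define them. Itga1 was at 715 CPM in KO premalignant and 623 CPM in WT premalignant (log2 ratio 0.20), Esam at 738 and 729 CPM (0.02), Pecam1 at 0.05 and Itga9 at -0.06 on the log2 scale. Of 25 measured members 7 were higher and 2 lower in KO premalignant, against 5.23% and 2.8% of all genes. Cd34 was at 18.2 CPM in KO and 38.04 CPM in WT (-1.06, -1.25 to -0.88), and -0.68 with clusters weighted alike. With own-library clustering its ratio was -1.58. In that setting LSEC-like cells numbered 1642 in KO and 4817 in WT premalignant. Vascular endothelium-like cells, which hold high Cd34, then numbered 0 in KO and 261 in WT premalignant, against 3 and 6 in the main clustering. Selp was at 20.1 CPM in KO and 11.6 CPM in WT (0.79, 0.58 to 0.99), but its ratio was 0.36 with clusters weighted alike and 0.45 with own-library clustering. The low Itga3 (0.74) and Itgb4 (-0.61) were the other non-leukocyte members past 1.5-fold, and both turned under an alternative: Itga3 to -0.13 with own-library clustering and Itgb4 to 0.053 with cells weighted equally. With clusters weighted alike Itga3 was at 0.53 and Itgb4 at -0.19, and Itga3 was at 0.44 at Leiden resolution 2. The largest positive ratios were of leukocyte members: Itga4 at 9.97 and 2.79 CPM (1.84, and 1.00 with doublets kept), Itgal at 18.3 and 6.21 CPM (1.56), Itgb2 at 9.67 and 3.91 CPM (1.31), Selplg at 9.55 and 4.16 CPM (1.20) and Itgb7 at 12.8 and 7.01 CPM (0.87). With doublets kept Selplg (0.48) and Itgb7 (0.57) were within 1.5-fold, after thinning Itgb2 (0.57) and Itgb7 (0.38), and Itgb7 also with own-library clustering (0.45) and with cells weighted equally (0.57). The T markers in LSEC-like cells summed to 96.2 CPM in KO premalignant and 38.7 CPM in WT premalignant, the B markers to 173 and 56.5 CPM and the NK/ILC1 markers to 33.6 and 9.12 CPM. Their part in these ratios was not tested.

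Between stages, most members past 1.5-fold were lower in eHCC than in premalignant liver. With the label KO, 4 of 71 pairs were higher and 36 lower in eHCC, 56.3% in all, against 42.9% of all genes and classes (6.81% higher, 36.1% lower). With the label WT, 8 of 76 were higher and 31 lower, 51.3% in all, against 28.1% (7.98% higher, 20.1% lower). All genes leaned the same way: their median log2 ratio with the label KO was -0.48 in B-like, -0.40 in T-like, -0.42 in NK/ILC1-like and -0.18 in monocyte/macrophage-like cells, and with the label WT between -0.23 and -0.17. By class, 43.2% of all genes were past 1.5-fold downwards in B-like, 39.0% in T-like, 38.6% in NK/ILC1-like and 23.5% in monocyte/macrophage-like cells with the label KO, and 20.4%, 16.2%, 20.4% and 23.6% with the label WT. Upwards, the shares in the same order of classes were 2.99%, 7.54%, 5.25% and 10.9% with the label KO, and 3.6%, 7.15%, 5.5% and 13.7% with the label WT. The stage ratios share libraries with the genotype ratios above and are not independent of them.

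Icam2 was lower in eHCC in all 4 classes with both labels, and Itgal in all of them except WT B-like cells. In T-like cells Itgal was at 172 CPM in KO eHCC and 420.5 CPM in KO premalignant (log2 ratio -1.29, -0.88 after centring on all genes), and at 156 CPM in WT eHCC and 252 CPM in WT premalignant (-0.69). In NK/ILC1-like cells it was at 247 CPM in KO eHCC and 548 CPM in KO premalignant (-1.15), and at 187 CPM in WT eHCC and 364 CPM in WT premalignant (-0.97). In B-like cells Itgal was lower with the label KO (-1.18) and level with the label WT (-0.06), and in monocyte/macrophage-like cells it was lower with both (-1.20 and -1.50). With clusters weighted alike the last of these turned to 0.42, and different clusters held most of that class in WT eHCC and WT premalignant. Centring took Itgal in WT T-like cells to -0.51. Icam2 ratios lay between -0.97 and -1.69 with the label KO and between -0.96 and -2.95 with the label WT over the 4 classes, and with the label KO came to -0.50 in B-like and -0.55 in NK/ILC1-like cells after centring. Pecam1 was lower in B-like (-1.25 with the label KO, -0.60 with WT) and T-like cells (-1.81 and -1.78), and in WT monocyte/macrophage-like cells (-2.64). In WT B-like cells Pecam1 was at -0.37 after centring, and at -0.53 and -0.55 at Leiden resolution 2 and with clusters weighted alike.

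Esam and Itga9 were also lower in eHCC in T-like and B-like cells. Esam was at 0.598 CPM in KO eHCC and 11.8 CPM in KO premalignant in T-like cells (log2 ratio -4.31), and at 1.35 CPM in WT eHCC and 21.5 CPM in WT premalignant (-4.00). In B-like cells its ratio was -4.68 with the label KO and -2.65 with WT, and in WT monocyte/macrophage-like cells -5.04. Itga9 was lower in T-like cells with both labels (-4.88 with KO, -3.11 with WT) and in WT B-like cells (-2.85). LSEC-like cells, where both genes are at high level, numbered 19 in KO eHCC, 51 in WT eHCC, 2977 in KO premalignant and 5483 in WT premalignant, and the LSEC marker sum in T-like cells was 10.2, 28.8, 229 and 469 CPM in that order. Its part in these ratios was not tested.

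Itga1 itself was lower in eHCC with the label KO in all 4 classes: T-like (27.3 CPM in KO eHCC, 122 CPM in KO premalignant, log2 ratio -2.15), NK/ILC1-like (23.2 and 154.8 CPM, -2.74), B-like (-3.31) and monocyte/macrophage-like (-1.94). With the label WT it was lower in B-like (-2.39) and monocyte/macrophage-like cells (-3.06) but within 1.5-fold in T-like (-0.28) and NK/ILC1-like cells (-0.23). Itga1 is highest in LSEC-like cells. In B-like cells the LSEC markers summed to 80.1, 112, 282 and 453 CPM in KO eHCC, WT eHCC, KO premalignant and WT premalignant. In monocyte/macrophage-like cells they summed to 432, 792, 442 and 828 CPM in that order. Their part in the Itga1 ratios was not tested. Other members lower with the label KO were Itga4 in B-like (-1.01), NK/ILC1-like (-0.72) and monocyte/macrophage-like cells (-0.74), Itga6 in all 4 classes (-0.90 to -1.19), Itgad in NK/ILC1-like (-2.54) and T-like cells (-1.17), and Itgam in NK/ILC1-like cells (-1.07). Itgb7 was lower in T-like (-0.94) and B-like cells (-0.59), Itgb1 in B-like cells (-0.80), Itgax in T-like (-0.70) and NK/ILC1-like cells (-0.69), Itga5 in monocyte/macrophage-like cells (-0.74), and Itgb3 (-1.41), Itga2 (-1.25) and Itgae (-0.79) in T-like cells. In KO T-like cells, with clusters weighted alike, Itgae turned to 0.70 and Itgax to 0.033, and Itgb3 (-0.29), Itga2 (-0.46) and Itgb7 (-0.58) came within 1.5-fold. Itgae there was between -0.57 and -0.32 under 5 other alternatives. Centring on all genes with the label KO left within 1.5-fold Itga6 in B-like (-0.45), T-like (-0.54) and NK/ILC1-like cells (-0.49), Itga4 in B-like (-0.52), NK/ILC1-like (-0.31) and monocyte/macrophage-like cells (-0.56), Itgb7 in B-like (-0.11) and T-like cells (-0.53), Itgb1 in B-like cells (-0.31), Itgax in T-like (-0.30) and NK/ILC1-like cells (-0.28) and Itga5 in monocyte/macrophage-like cells (-0.56). Itgb7 in B-like cells also came within it under 3 other alternatives (-0.58 to -0.55), Itga4 in monocyte/macrophage-like cells after thinning (-0.55) and with clusters weighted alike (-0.52), Itga6 in NK/ILC1-like cells with cells weighted equally (-0.55), and Itga5 at Leiden resolution 2 (-0.58). With the label WT, Itgb2 (-1.16), Itgam (-1.13), Icam1 (-0.82), Itgb7 (-0.76) and Itgax (-0.68) were lower in NK/ILC1-like cells. Itgb3 (-1.10), Itga5 (-0.87) and Itga6 (-0.63) were lower in WT T-like cells and Itgb3 (-0.62) in WT B-like cells. In WT monocyte/macrophage-like cells Itgb7 (-2.35), Cd34 (-2.15), Itga8 (-1.67), Itga4 (-1.40) and Icam1 (-0.89) were lower. Itga4 there turned to 0.13 with clusters weighted alike, and Icam1 (-0.031) and Itgb7 (-0.57) came within 1.5-fold. Centring took Itgax (-0.45) and Itgb7 (-0.52) in WT NK/ILC1-like cells within it. In WT T-like cells Itgb3 was at -0.53 with clusters weighted alike, Itga6 between -0.58 and -0.24 under 6 alternatives and Itga5 between -0.49 and -0.37 under 3, and Itgb3 in WT B-like cells was between -0.52 and -0.35 under 4.

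The members higher in eHCC were few. Vcam1 in monocyte/macrophage-like cells was at 177 CPM in KO eHCC and 13.8 CPM in KO premalignant (log2 ratio 3.68, 3.05 to 4.39), and at 163 CPM in WT eHCC and 30.3 CPM in WT premalignant (2.42), so both eHCC libraries lay above both premalignant ones. Itgb3 in NK/ILC1-like cells (48.2 CPM in KO eHCC, 19.7 CPM in KO premalignant, 1.29), and Itgav (0.87) and Itgb8 (0.97) in T-like cells, were higher with the label KO. With clusters weighted alike Itgb8 turned to -0.16, and with own-library clustering Itgb3 in NK/ILC1-like cells was at 0.26. With the label WT, Itgae was higher in T-like (51.7 CPM in WT eHCC, 13.9 CPM in WT premalignant, 1.90) and NK/ILC1-like cells (39.8 and 4.89 CPM, 3.02). Itga6 (4.09), Itgb5 (1.80) and Itgax (86.2 and 39.7 CPM, 1.12, and 0.52 to 0.58 under 3 alternatives) were higher in WT monocyte/macrophage-like cells, and Itgb5 (2.29) and Itgam (1.93) in WT T-like cells at no more than 8.55 CPM. The monocyte/macrophage markers in T-like cells summed to 1352 CPM in WT eHCC and 551 CPM in WT premalignant, and their part in the last 2 ratios was not tested.

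Related genes of adhesion, 69 in all, were counted in the same way. They comprise adaptors that activate integrins, matrix and cell-bound ligands, selectin ligand enzymes and further integrins. In T-like cells of eHCC, 4 of 48 measured were higher in KO (8.33%, against 8.54% of all genes) and 15 lower (31.2%, against 18.1%). In NK/ILC1-like cells 6 of 35 were higher (17.1%, against 8.46%) and 6 lower (17.1%, against 15.7%), and in B-like cells 4 of 30 each way (13.3%, against 7.26% higher and 12.1% lower). In monocyte/macrophage-like cells 15 of 51 were higher (29.4%, against 13.1%) and 19 lower (37.2%, against 20.3%). The share higher in T-like cells and the shares lower in NK/ILC1-like and B-like cells were thus near the background. Cdh1, the E-cadherin to which alphaEbeta7 binds, was at 4.41 CPM in KO eHCC and 49.6 CPM in WT eHCC in T-like cells (log2 ratio -3.49), and at 2.32 and 48.8 CPM in NK/ILC1-like cells (-4.39). WT premalignant held 1.44 CPM of Cdh1 in T-like and 2.44 CPM in NK/ILC1-like cells. Cdh1 was also past 1.5-fold lower in KO eHCC in monocyte/macrophage-like cells, and past 1.5-fold higher in KO than in WT premalignant T-like cells. Hepatocyte markers summed to 14.3 CPM in KO eHCC and 176 CPM in WT eHCC in T-like cells, and to 52.8 and 180.0 CPM in NK/ILC1-like cells. Their part in the Cdh1 ratios was not tested. Spp1, osteopontin, a ligand of alphav and alpha9 integrins, was at 77.2 CPM in KO eHCC and 2926 CPM in WT eHCC in monocyte/macrophage-like cells (-5.24). The cluster of that class led by Spp1 and Chil3 held 8 cells in KO eHCC and 439 in WT eHCC. Cytip, which dampens LFA-1 adhesion, was higher in KO eHCC in monocyte/macrophage-like (1.99), B-like (1.00) and T-like cells (0.86), and Rasgrp2, a Rap1 activator, in monocyte/macrophage-like (1.66) and NK/ILC1-like cells (1.08). Different clusters held most monocyte/macrophage-like, T-like and B-like cells in KO eHCC and WT eHCC. No ratio within clusters is given for these related genes.

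In premalignant liver, related genes higher in KO were near the background in B-like (7 of 45, 15.6%, against 13.4% of all genes), T-like (6 of 50, against 10.6%) and NK/ILC1-like cells (3 of 30, 10.0%, against 11.1%). They were 5 of 30 in pDC-like cells (16.7%, against 9.28%), 6 of 32 in monocyte/macrophage-like cells (18.8%, against 7.95%) and 11 of 55 in LSEC-like cells (against 5.23%). Lower in KO were 3 in B-like cells (6.67%, against 4.56%) and 8 in T-like cells (16.0%, against 4.72%). In monocyte/macrophage-like cells 1 was lower (3.12%, against 6.37%) and in LSEC-like cells 1 (1.82%, against 2.8%). In NK/ILC1-like and pDC-like cells 0 were lower, against 4.97% and 3.88%. These last 4 classes thus held no more than the background. Spn, the leukocyte sialomucin CD43, was higher in KO premalignant in NK/ILC1-like (267 CPM in KO, 178 CPM in WT, log2 ratio 0.59), B-like (0.87) and monocyte/macrophage-like cells (0.94). It was also higher in LSEC-like cells (4.87 and 0.897 CPM, 2.44), beside the lymphocyte markers given above. Fn1, fibronectin, the main ligand of alpha5beta1, was at 1275 CPM in KO premalignant and 697 CPM in WT premalignant in monocyte/macrophage-like cells (0.87). Between stages, with the label KO, related genes lower in eHCC were 19 of 36 in B-like cells (52.8%, against 43.2% of all genes), 16 of 46 in T-like cells (34.8%, against 39.0%), 8 of 32 in NK/ILC1-like cells (against 38.6%) and 13 of 41 in monocyte/macrophage-like cells (31.7%, against 23.5%), and those higher were 2, 1, 1 and 4 (5.56%, 2.17%, 3.12% and 9.76%, against 2.99%, 7.54%, 5.25% and 10.9%). With the label WT, those lower were 10 of 43 (23.3%, against 20.4%), 16 of 53 (30.2%, against 16.2%), 7 of 32 (21.9%, against 20.4%) and 17 of 51 (33.3%, against 23.6%) in the same order of classes, and those higher were 4, 6, 4 and 13 (9.3%, 11.3%, 12.5% and 25.5%, against 3.6%, 7.15%, 5.5% and 13.7%). Thbs1, thrombospondin, was higher in eHCC in T-like cells with both labels (8.08 CPM in KO eHCC and 0.296 CPM in KO premalignant, 13.4 CPM in WT eHCC and 0.515 CPM in WT premalignant). Thbs1 was also among the leading genes of monocyte/macrophage-like clusters and of the platelet cluster. The monocyte/macrophage markers in T-like cells summed to 1068, 466, 1352 and 551 CPM in the same order of libraries. Their part in the Thbs1 levels was not tested.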

How the data were processed

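The authors deposited raw UMI counts per gene and cell barcode for each library, and the file headers name Cell Ranger 3.0.1. The submitters' processing notes also name bcl2fastq 2.20.0 and the builds GRCh38 and mm10, with no role given. The labels' protocols name a 10x 5' kit and enzymatic dissociation.

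From these counts, barcodes with at least 500 UMIs, 300 genes and at most 25% mitochondrial UMIs were kept, and predicted doublets (7.17% to 10.67% of those that passed) were removed by a score against simulated doublets. Cells of the 4 libraries were clustered together (Leiden, leidenalg 0.10.2, igraph 0.11.9, resolution 1, 2000 variable genes, 40 components, 15 neighbours) in Python 3.11.15 with numpy 2.4.6, scipy 1.17.1 and pandas 2.3.3, and clusters were named "-like" from 19 marker lists. UMIs were summed per class and library and scaled to CPM. Intervals are exact Poisson, Clopper-Pearson or conditional binomial at 95%, with a floor of 3 UMIs for a count of 0. Ratios needed 100 cells in both libraries and 50 UMIs together, and 1.5-fold was the size counted. The calculation was tested on simulated counts. With doublets kept, WT mast/basophil-like cells numbered 16 in WT eHCC and 24 in WT premalignant (2 and 0 without) and vascular cells 198 in WT eHCC (122 without). Genes were named where past 1.5-fold in a class, or in their highest class, and at most 3 related genes each way per class. The members and lists were chosen with earlier results of these data known.

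Alternatives covered the mitochondrial limit (10%), doublets kept, Leiden resolution 2, each library clustered on its own, members allowed in the clustering, thinning to 1000 UMIs, centring, equal cells, clusters weighted alike, minimums of 20 and 200 UMIs, 2-fold, and dropping the top cell. Ratios within clusters 12 and 20 of the monocyte/macrophage-like cells were added after seeing the data.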

Additional observations from a re-analysis of the deposited data

Results flagged for a closer look

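In all, 4 pairs of ratios pointed opposite ways, each past 1.5-fold. The difference between the 2 ratios of a pair was not tested, since each group is 1 library. In T-like cells the log2 ratio of Itga1 between the libraries labelled KO and WT was -1.18 in eHCC and 0.69 in premalignant liver, the second 0.47 with clusters weighted alike. In monocyte/macrophage-like cells that of Pecam1 was 1.83 in eHCC and -0.80 in premalignant liver, but the second was 0.088 with doublets kept and the first 0.42 with clusters weighted alike. Between eHCC and premalignant liver, Itgae in T-like cells was at -0.79 with the label KO and 1.90 with the label WT, and the KO ratio was 0.70, of the same sign as WT, with clusters weighted alike and -0.38 after centring on all genes. Itga6 in monocyte/macrophage-like cells was at -1.19 with the label KO and 4.09 with the label WT.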

How the results depend on the processing

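Of 1818 values of the 162 named ratios recomputed under alternatives, 1663 kept their direction and side of 1.5-fold, 124 came within it, 5 went past it and 26 turned, 20 of them from past 1.5-fold. Of the 153 named ratios past 1.5-fold, 76 stayed past it under every alternative that gave a value and 77 did not. Counts of pairs past 1.5-fold that moved by over 1.5 times were, for KO over WT in premalignant liver (39), 16 after thinning, 23 at a minimum of 200 UMIs and 8 at 2-fold, for KO over WT in eHCC (35), 22 after thinning and 21 at 2-fold, for eHCC over premalignant with KO (40), 24 at 2-fold, and with WT (39), 22 after thinning and 69 with each library clustered on its own. Own-library clustering turned Itga3 in premalignant LSEC-like cells (-0.13), and Itgam (-0.35) and Itga2 (-0.21) in eHCC NK/ILC1-like cells. Equal cells turned Itgb4 in premalignant LSEC-like cells (0.053), and kept doublets turned Pecam1 in premalignant monocyte/macrophage-like cells (0.088). Clusters weighted alike turned Itga4 (-0.36), Itgal (-0.76) and Icam1 (-0.15) in eHCC monocyte/macrophage-like cells, Itgax (0.033), Itgae (0.70) and Itgb8 (-0.16) in KO T-like cells between stages, and Itga4 (0.13) and Itgal (0.42) in WT monocyte/macrophage-like cells between stages. In eHCC monocyte/macrophage-like cells, Itga4 (-0.35), Itgal (-0.80), Icam1 (-0.14) and Icam2 (-0.29) turned within cluster 12, and Itga4 (-0.40), Itgal (-0.53) and Icam1 (-0.17) within cluster 20. The causes were not tested. Thinning leaves fewer pairs with 50 UMIs.

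The ratio of Itgae in eHCC NK/ILC1-like cells ranged from -6.15 to -4.23 and that of Itga1 from -3.36 to -1.93. No paired analysis was possible because each group is 1 library and no result comes from a test. Depth limits the rare classes: values from under 100 cells are levels only.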
